A study of Cucurbita pepo with 12 samples.

Results

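Zucchini root genes that were low in the library from plants grown with bulk copper oxide (CuO), and in no other root library, are described here. A gene was taken from the deposited expression table when 2 conditions held. The lowest of its values in the CuO nanoparticle (NPs), CuSO4 and untreated root libraries, plus 1, was at least 3 times its bulk CuO value plus 1. Its nanoparticle value plus 1 was under 2 times its untreated value plus 1. This held for 110 of 27868 genes (0.395%). Another 14 genes met the first condition and not the second one, and were left out. Because the 4 root libraries chose these genes, their root values are a description and carry no test, and tests were made only on leaf and pollen.

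Plants of Cucurbita pepo, cultivar Costata Romanesco, grew indoors in pots of soil for 60 days, 1 per pot, with a copper material mixed into the soil or with none. The materials were bulk CuO at 100 mg/kg of soil, CuO NPs at 100 mg/kg and copper sulfate pentahydrate (CuSO4) at 320 mg/kg, which each bring about 80 mg/kg of copper, and the control plants were untreated. Root, leaf and pollen were sequenced, with 1 library for each of the 12 pairs of tissue and treatment. The submitters state that 3 biological replicates per treatment were extracted, and the sources used here do not say whether they were pooled, so a difference between treatments within a tissue has no replicate check. Values are FPKM, fragments per kilobase of transcript and 1e6 reads, and differences are on the log2(FPKM + 1) scale, which understates the change of low genes. Read totals are unknown. The spacing of low values put the depth of the bulk CuO root library at 1.1 times that of the control root library, with 1.08 for NPs and 0.913 for CuSO4. In leaf these ratios were 1.06 for bulk CuO, 1 for NPs and 1.08 for CuSO4, and in pollen 0.986, 1.02 and 1.15.

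Copper is an essential micronutrient, a cofactor of enzymes that carry electrons in respiration and photosynthesis, and harmful in excess. Roots are the organ in contact with the soil and take it up first. Copper sulfate is a soluble salt, whereas CuO particles release copper as they dissolve. The gene IDs are those of the deposited table. None of them (0 of 27868) is in the RefSeq gene table of the species used here, so they cannot be paired with names, functions or sequences, and the tissue labels were not checked against marker genes. At most 2 IDs per direction are therefore printed for each comparison.

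In root the 110 genes had a median of 7.21 FPKM under bulk CuO, 38.1 FPKM under NPs, 31.6 FPKM under CuSO4 and 31.1 FPKM in the control. They spanned 0 to 263 FPKM under bulk CuO, 3.85 to 2852 FPKM under NPs, 3.80 to 1646 FPKM under CuSO4 and 3.64 to 1499.7 FPKM in the control. Adding 1 to each value keeps rare transcripts out of the group, and the 20985 root genes that averaged 1 FPKM or more had a control median of 9.40 FPKM. Summed, the genes took 0.648% of all FPKM under bulk CuO, against 3.78% under NPs, 3.19% under CuSO4 and 3.14% in the control. In bulk tissue, fewer cells of a type and less RNA per cell cannot be told apart. Under bulk CuO 3 genes were listed at 0, which in a table without counts can be a failed estimate. For the other 107, the control value was 3.08 to 43.9 times the bulk CuO value, with a median of 4.78.

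**Figure D1:**
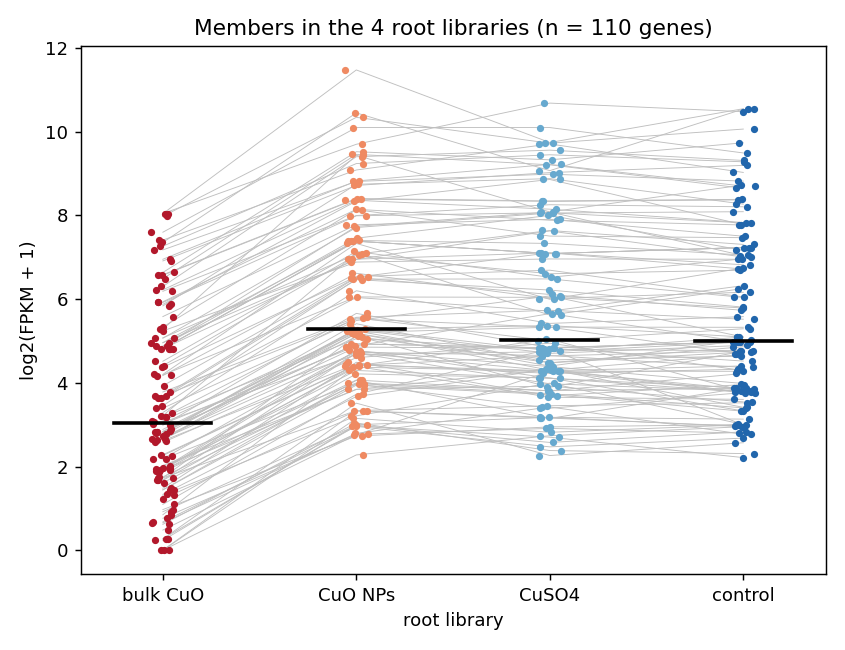
Each point is one of the 110 genes in one root library, with log2(FPKM + 1) on the vertical axis, grey lines joining the same gene and a black bar at the median. The drop under bulk CuO is what the genes were chosen for, and the medians of the other 3 libraries lie close together, at 38.1, 31.6 and 31.1 FPKM.

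The log2 difference between bulk CuO and control roots ran from -3.45 to -1.59, with a median of -2.05, where the median over all 20985 genes was -0.08. The choice of genes keeps this difference past 3-fold in FPKM + 1, and the added 1 limits how far genes of low level can go. Within those limits its median was -2.003 for 19 genes under 10 FPKM in the control, -2.004 for 52 genes between 10 and 100 FPKM, and -2.16 for 39 genes at 100 FPKM or more. At the threshold of 2.3 that the submitters name for log2 FPKM, 30 of the 110 genes were lower under bulk CuO, and 0.362% of all genes tested were. Since the genes were chosen on this contrast, nothing is read from that count. The ratio the genes were chosen on was 3.01 to 8.06, with a median of 3.72. Just inside lay Cp4.1LG05g06560, with 8.05 FPKM under bulk CuO, 32.3 FPKM under NPs, 26.9 FPKM under CuSO4 and 26.3 FPKM in the control. Just outside, at 2.996, lay Cp4.1LG00g08960, with 0.328 FPKM under bulk CuO, 6.38 FPKM under NPs, 4.16 FPKM under CuSO4 and 2.98 FPKM in the control.

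The 2 genes with the largest difference from control root were of unlike abundance. Cp4.1LG17g00170 stood at 37.9 FPKM under bulk CuO, 694 FPKM under NPs, 270.3 FPKM under CuSO4 and 423 FPKM in the control, a log2 difference of -3.45 between bulk CuO and control. It was nearly confined to root, with at most 0.614 FPKM in any leaf library and 0.277 FPKM in any pollen library. Cp4.1LG09g09550 stood at 0.396 FPKM under bulk CuO, 5.78 FPKM under NPs, 18.4 FPKM under CuSO4 and 12.6 FPKM in the control, a difference of -3.28. With 5 in place of 1 added to FPKM, this difference was -1.70. Against CuSO4 root, Cp4.1LG09g09550 also led, with -3.80, followed by Cp4.1LG03g03850 with -3.71, and with 5 added the differences were -2.12 and -2.38. This second gene had 1.14 FPKM under bulk CuO, 12.3 FPKM under NPs, 27.0 FPKM under CuSO4 and 6.98 FPKM in the control, and was listed at 0 in all leaf and pollen libraries.

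The 2 genes highest in control root differed in where else they were found. Cp4.1LG12g07960 had 263 FPKM under bulk CuO, 2852 FPKM under NPs, 856 FPKM under CuSO4 and 1499.7 FPKM in the control, and was listed at 0 in every leaf and pollen library. Cp4.1LG12g05650 had 163 FPKM under bulk CuO, 1399 FPKM under NPs, 537 FPKM under CuSO4 and 1492 FPKM in the control. It was also abundant in leaf and pollen, with 109 FPKM under bulk CuO, 81.6 FPKM under NPs, 118 FPKM under CuSO4 and 116 FPKM in control pollen, and leaf values given below.

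NPs, CuSO4 and control were close to each other for most of the genes: in 98 of 110 the 3 values lay within 2-fold in FPKM + 1, and the median log2 range was 0.58. The choice of genes bounds these values, since the lowest of the 3 had to clear bulk CuO and NPs were held under 2 times the control. Within those bounds, 85 genes were above the control under NPs and 25 below, with a median of 0.26, where all genes had a median of 0.06. CuSO4 had no upper bound, and 63 genes were above the control and 47 below, with a median of 0.06, where all genes had -0.07. At a difference of 1, 4 genes were higher under CuSO4 (2.53% of all genes were) and 1 was lower (2.63% of all genes). The higher ones were led by Cp4.1LG03g03850, with a difference of 1.81. Next came Cp4.1LG07g06910, with 2.71 FPKM under bulk CuO, 20.2 FPKM under NPs, 32.0 FPKM under CuSO4 and 12.9 FPKM in the control, a difference of 1.24 between CuSO4 and control. The 1 lower gene was Cp4.1LG12g05650, with a difference of -1.47, so it was lower than the control under both bulk CuO and CuSO4. Cp4.1LG02g10360 came next, with 13.9 FPKM under CuSO4 and 26.0 FPKM in the control, a difference of -0.86.

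Applied to each library in turn, without the nanoparticle condition, the same 3-fold criterion set the bulk CuO root library apart in both directions. In root, 124 genes were low in the bulk CuO library alone, 23 in that of NPs, 40 in that of CuSO4 and 11 in the control. Genes high in 1 root library alone numbered 307 for bulk CuO, 27 for NPs, 18 for CuSO4 and 14 for the control. In leaf, 127 genes were low in bulk CuO alone and 130 in CuSO4 alone, against 10 in NPs and 13 in the control. In pollen, 12 genes were low in bulk CuO alone, 3 in NPs, 7 in CuSO4 and 70 in the control. With 1 library per group, a property of the library and an effect of the treatment cannot be told apart.

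**Figure D2:**
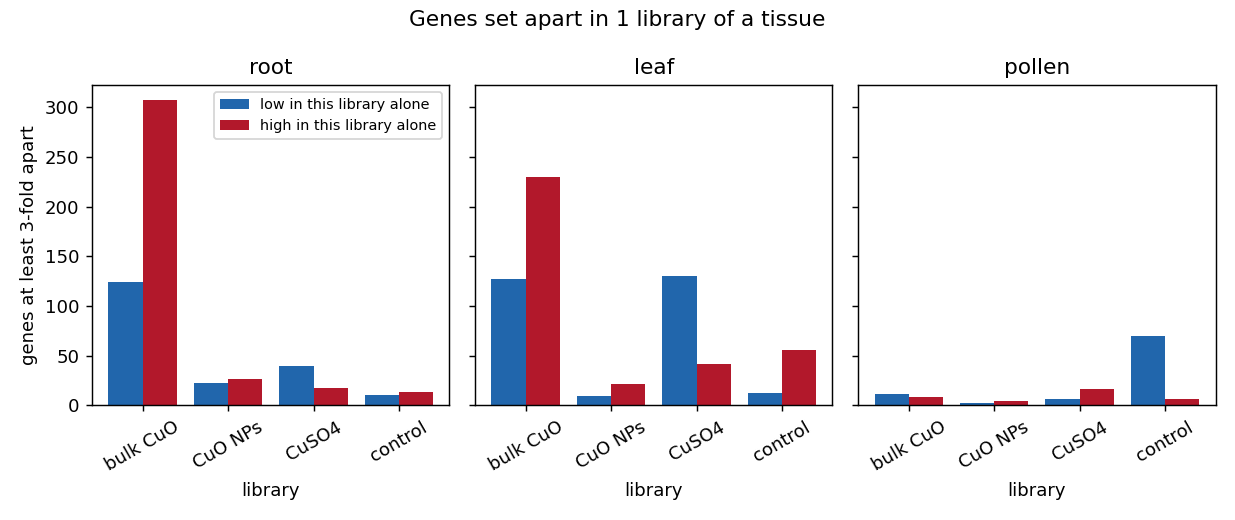
Bars count the genes at least 3-fold lower (blue) or higher (red) in FPKM + 1 in one library than in all 3 others of the same tissue, for root, leaf and pollen. In root the bulk CuO bars, 124 low and 307 high, exceed those of the other 3 libraries.

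The 110 genes were spread over the genome by their IDs. All 20 numbered linkage groups held some, between 2 and 9 each, and 8 had the LG00 prefix (7.27%, where 5.87% of all genes of the table have it). Consecutive IDs occurred in 3 pairs. Not every ID need stand for a separate measurement, since 7 of them formed sets whose values lay within 1% of each other in at least 10 libraries. In 1 set of 3 IDs, each had 27.2 FPKM in the bulk CuO root library and 166 FPKM in that of NPs. Whether such gene models share reads was not tested, and the level of each is uncertain.

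Beyond root, 93 of the 110 genes averaged 1 FPKM or more in leaf and 33 in pollen. Of these, 31 did so in both tissues, 62 in leaf alone and 2 in pollen alone, and 15 genes reached it in neither. In all leaf and pollen libraries 4 genes were listed at 0. With root taken as the mean of NPs, CuSO4 and control, 91 genes were highest in root, 16 in leaf and 3 in pollen. Root values chose the genes, so the order of root against the other tissues is not tested.

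**Figure D3:**
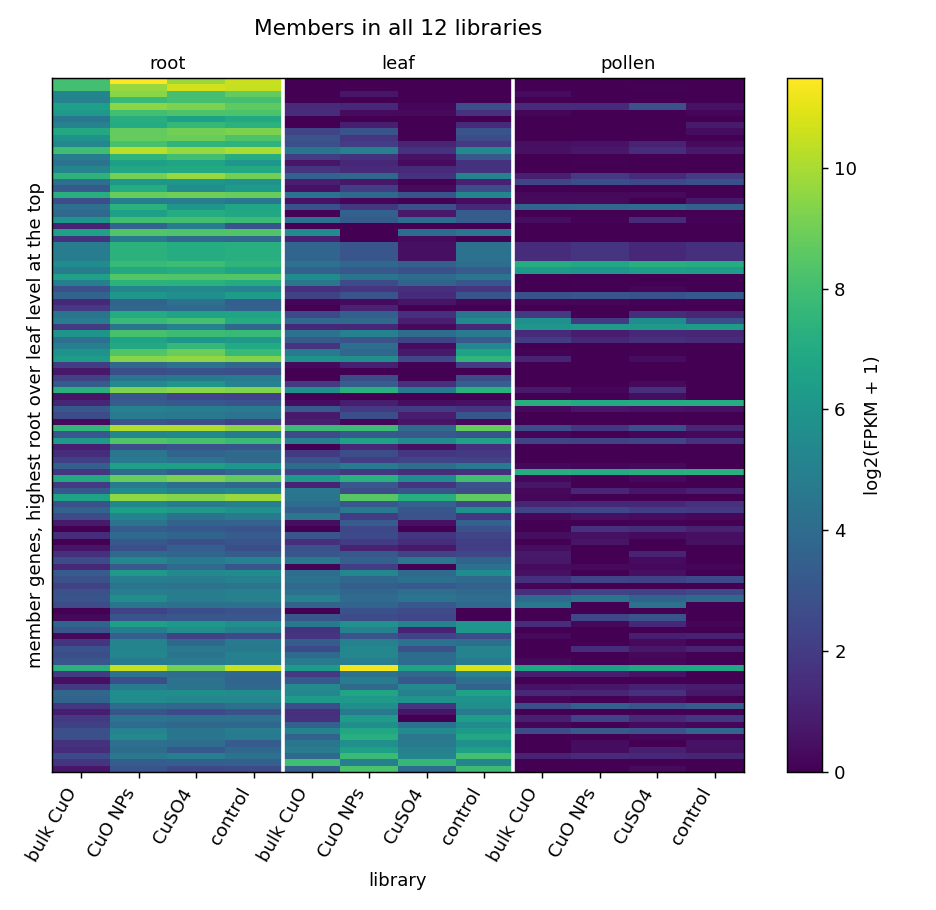
Rows are the 110 genes, ordered by root level over leaf level, columns are the 12 libraries and colour is log2(FPKM + 1). The dark bulk CuO column in root is the choice of genes, leaf values fade under bulk CuO and CuSO4 in many rows, and a few rows are bright across all pollen libraries.

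In leaf, which the choice of genes did not use, many of them were low under bulk CuO and more were low under CuSO4. At or past 2.3, 18 of 93 genes were lower under bulk CuO than in control leaf (19.4%), where 3.53% of the 20833 leaf genes tested were, and 3 were higher (3.23%), where 4.56% of all genes were. Under CuSO4, 31 were lower (33.3%), against 3.34% of all genes, and 3 were higher, against 2.86%. The 31 include the set of 3 near-equal IDs described above, and genes outside the group were not searched for such copies. NPs had 2 lower, against 0.125% of all genes, and 2 higher, against 0.101%. The 2 higher genes were listed at 0 in control leaf, so the size of their difference depends on the value added to FPKM. The median log2 difference of the 93 genes was -0.88 under bulk CuO, where all genes had 0.18, -1.23 under CuSO4, where all had 0.08, and -0.10 under NPs, where all had -0.01. With the 4 leaf libraries brought to a common median, 20 genes were lower under bulk CuO (4.11% of all genes were) and 3 higher (3.64%), and 34 were lower under CuSO4 (3.57%) and 3 higher (2.52%). These 3 comparisons share the control leaf library, so they are not separate observations.

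A comparison of leaf libraries that leaves out the control gave a like count. Between bulk CuO and NPs, 16 of 93 genes were lower under bulk CuO (17.2%), where 2.84% of all genes were. In 50 genes (53.8%) both bulk CuO and CuSO4 lay below both NPs and control, where this held for 30.8% of all leaf genes. The reverse order was found in 14 genes (15.1%), and in 42.5% of all genes. By at least 3-fold in FPKM + 1, both lay below in 16 genes (17.2%, against 3.37% of all genes) and above in 1 gene (1.08%, against 4.77%). Summed over the 110 genes, leaf had 1837 FPKM under bulk CuO, 5693 FPKM under NPs, 1359 FPKM under CuSO4 and 5774 FPKM in the control. Without Cp4.1LG12g05650 these sums were 1765, 3242, 1261 and 3942 FPKM. CuSO4 lay below bulk CuO in leaf for 67 of the 93 genes (72%), and for 58.2% of all leaf genes. In root the choice of genes put CuSO4 above bulk CuO, so its place there is not set against leaf. Between the bulk CuO and CuSO4 leaf libraries, 10 genes were higher under bulk CuO at or past 2.3 (10.8%), against 0.773% of all genes, and 2 were lower (2.15%), against 0.346%. The 10 include the set of 3 near-equal IDs described above, for which 1 measurement may be counted 3 times.

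Genes of different tissue preference contributed differently to these counts. Of the 93 genes, 39 had a root level at least 5 times their leaf level in FPKM + 1, with root as above and leaf as the mean of 4 libraries. Under bulk CuO 3 of these 39 were lower in leaf at or past 2.3 (7.69%), about the share among other genes of the same preference (8.64%). Under CuSO4 18 were lower (46.2%), against 14.3% of those other genes. The 18 include 3 IDs with the same leaf values, 19.3 FPKM in the control and 0.369 FPKM under CuSO4. For them 1 measurement may be counted 3 times. Higher at or past 2.3 were 0 of the 39 under bulk CuO, where 3.53% of the others were, and 0 under CuSO4, where 0.524% were. Under NPs 14 were lower at a difference of 1 (35.9%), against 9.55%, and over all 93 genes 17 were (18.3%), against 1.64% of all leaf genes. The same 3 IDs are among the 14, each at -1.29. The 764 other genes of this class had median leaf differences of -0.32 under bulk CuO, -0.19 under NPs and -0.80 under CuSO4. The leaf mean that sets the classes includes the treated libraries, so a gene low in treated leaves enters this class more readily. How far this shapes these medians and the counts by class was not tested. The median leaf value of the 39 genes was 6.63 FPKM under bulk CuO, 6.76 FPKM under NPs, 1.62 FPKM under CuSO4 and 8.88 FPKM in the control.

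The genes less biased towards root are given likewise by class, as counts from single libraries with no test of the difference between shares. Among 19 genes with root 2 to 5 times leaf, 4 were lower under bulk CuO (21.1%, against 3.56% of other such genes) and 5 under CuSO4 (26.3%, against 4.64%), and 1 was higher under bulk CuO (5.26%, where 2.98% of other such genes were) and 0 under CuSO4 (where 0.83% were). Among 26 genes with root 0.5 to 2 times leaf, 7 were lower under bulk CuO (26.9%, against 1.56% of other such genes) and 5 under CuSO4 (19.2%, against 1.43%). Of these 26 genes, 1 was higher under bulk CuO (3.85%, against 2.49%), 2 under CuSO4 (7.69%, against 1.13%) and 2 under NPs (7.69%, against 0.0597%). The 2 under CuSO4 and the 2 under NPs are the same genes, Cp4.1LG16g00750 and Cp4.1LG05g00790. Both were listed at 0 in control leaf, and the 1 under bulk CuO is Cp4.1LG16g00750. Without genes listed at 0, 0 of the whole group were higher under NPs (0.0195% of all leaf genes were). Among 9 genes with root under 0.5 times leaf, 4 were lower under bulk CuO (44.4%, against 8.15% of other such genes) and 3 under CuSO4 (33.3%, against 5.94%), and 1 was higher under each (11.1%, against 11.6% for bulk CuO and 9.26% for CuSO4). These 9 genes had a median leaf value of 14.1 FPKM under bulk CuO, 90.9 FPKM under NPs, 25.2 FPKM under CuSO4 and 81.7 FPKM in the control. Their median difference was -2.07 under bulk CuO and 0.04 under NPs, and that of the 4525 other genes of this class was 0.31 and 0.07.

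**Figure D4:**
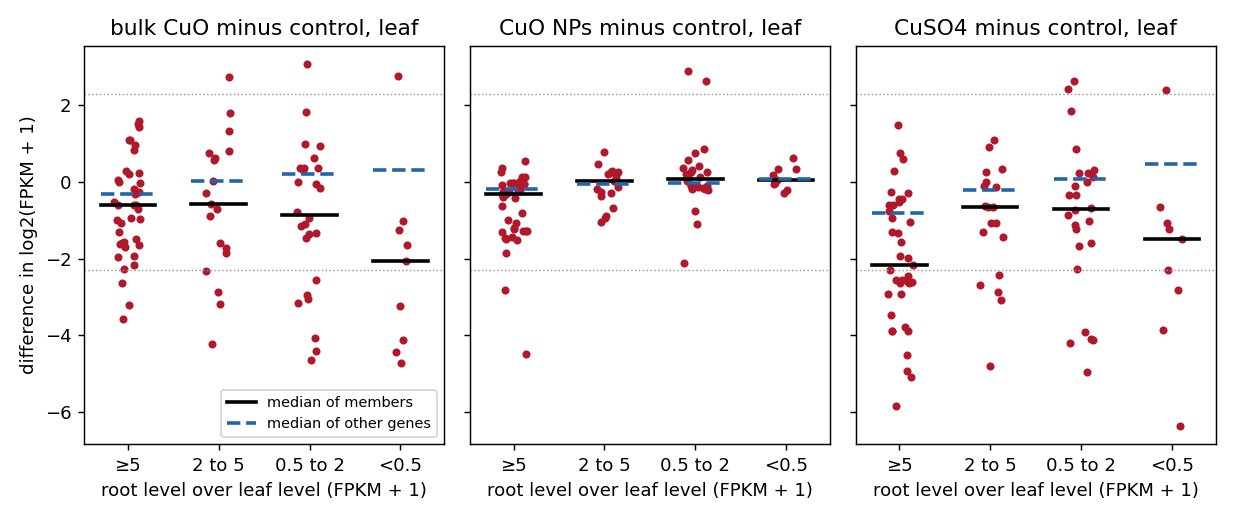
Points are the 93 genes tested in leaf, with the log2(FPKM + 1) difference from control leaf on the vertical axis and classes of root over leaf level on the horizontal one. Black bars are medians of these genes, blue dashes medians of all other genes of the class, and dotted lines the threshold of 2.3. Under bulk CuO the gap between bar and dash is widest in the class with root under 0.5 times leaf (-2.07 against 0.31).

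Single genes in leaf reached larger differences than in root. This was not particular to the group, since 3.53% of all leaf genes and 0.362% of all root genes were lower under bulk CuO at or past 2.3. Cp4.1LG01g10990, farthest below the control under bulk CuO, stood at 2.13 FPKM under bulk CuO and 78.8 FPKM under NPs, was listed at 0 under CuSO4, and stood at 81.7 FPKM in the control, with a log2 difference of -4.72 for bulk CuO. Its root values were 2.89 FPKM under bulk CuO, 19.8 FPKM under NPs, 18.4 FPKM under CuSO4 and 18.4 FPKM in the control. The choice of genes fixed the low bulk CuO value in root and put CuSO4 above it, so its root and leaf values are not contrasted. The gene with the ID just before it, Cp4.1LG01g10980, had the same arrangement in leaf, with 5.68 FPKM under bulk CuO, 51.1 FPKM under NPs, 2.38 FPKM under CuSO4 and 50.5 FPKM in the control. The other pairs of consecutive IDs were not alike in leaf. Under bulk CuO, Cp4.1LG04g14890 had a difference of 2.76 and its neighbour -0.28. Cp4.1LG12g07960 was listed at 0 in leaf, where its neighbour had -2.17. Second farthest below the control under bulk CuO was Cp4.1LG12g05650, the most abundant of the group in leaf. It had 71.9 FPKM under bulk CuO, 2451 FPKM under NPs, 97.8 FPKM under CuSO4 and 1832 FPKM in the control, a difference of -4.65 for bulk CuO. Under CuSO4 and under NPs Cp4.1LG08g09610 was second among the lower genes, with 25.3 FPKM under bulk CuO, 13.3 FPKM under NPs, 0.74 FPKM under CuSO4 and 99.7 FPKM in control leaf. Its differences were -5.85 under CuSO4 and -2.82 under NPs.

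The genes that led on the higher side in treated leaves were listed at 0 in the control. Cp4.1LG16g00750 stood at 7.44 FPKM under bulk CuO, 5.26 FPKM under NPs and 4.37 FPKM under CuSO4, and was listed at 0 in control leaf. Cp4.1LG05g00790 stood at 6.43 FPKM under NPs and 5.25 FPKM under CuSO4, and was listed at 0 under bulk CuO and in the control. Cp4.1LG04g14890 was an exception, being expressed in all 4 leaf libraries. It had 256 FPKM under bulk CuO, 30.2 FPKM under NPs, 200.4 FPKM under CuSO4 and 36.9 FPKM in the control, differences of 2.76 for bulk CuO and 2.41 for CuSO4. In root it had 2.32 FPKM under bulk CuO, 9.11 FPKM under NPs, 9.95 FPKM under CuSO4 and 10.5 FPKM in the control. The low root value under bulk CuO was fixed by the choice of genes, so the 2 organs are not contrasted for this gene. The lowest gene under NPs, Cp4.1LG00g06060, was listed at 0 there, against 47.4 FPKM under bulk CuO, 15.7 FPKM under CuSO4 and 21.6 FPKM in the control. It is one of the IDs with a near copy, Cp4.1LG05g02820, which stood at 20.5 FPKM in the same library, so this 0 is uncertain.

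In pollen 33 genes could be compared, and 0 of them were lower under any copper material at or past 2.3. Such a fall needs a control value plus 1 of at least 4.92. Many of the 33 genes had less in control pollen, among them Cp4.1LG16g00750, listed at 0, so nothing is read from the 0. Under bulk CuO 2 were higher, against 1.45% of 11185 pollen genes, and 0 lower, against 0.152%. Under CuSO4 3 were higher, against 1.95%, and 0 lower, against 0.0805%. NPs had 1 higher, against 0.25%, and 0 lower, against 0.0894%. Median log2 differences were -0.07 under bulk CuO, 0.03 under CuSO4 and 0 under NPs, where all pollen genes had 0.07, 0.07 and 0.12. Cp4.1LG19g01980 was detected in pollen under bulk CuO, at 23.2 FPKM, and under CuSO4, at 18.9 FPKM, and was listed at 0 under NPs and in control pollen. In leaf it kept to 7.79 to 13.2 FPKM in all 4 libraries, and in root it had 5.12 FPKM under bulk CuO, 20.9 FPKM under NPs, 17.7 FPKM under CuSO4 and 19.1 FPKM in the control. Cp4.1LG07g01530 had 53.4 FPKM under bulk CuO, 2.83 FPKM under NPs, 47.1 FPKM under CuSO4 and 5.77 FPKM in control pollen, differences of 3.01 for bulk CuO and 2.83 for CuSO4. The third higher gene under CuSO4 was Cp4.1LG16g00750, at 6.97 FPKM under CuSO4 and 4.53 FPKM under NPs and listed at 0 under bulk CuO and in the control. Among genes with at least 5 FPKM in either library, the farthest below the control under bulk CuO was Cp4.1LG15g01700, with 5.26 FPKM under bulk CuO, 8.15 FPKM under NPs, 6.58 FPKM under CuSO4 and 12.2 FPKM in control pollen, differences of -1.08 for bulk CuO and -0.81 for CuSO4. Next was Cp4.1LG01g10980, at 5.71 FPKM under bulk CuO and 8.74 FPKM in control pollen, a difference of -0.54, and of -0.30 under CuSO4.

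Leaf and pollen were then compared over treatments with limma, the 4 libraries of a tissue serving as its replicates and treatment as a block. Of 95 genes tested, 69 were higher in leaf (68.2% of all 22243 genes were) and 7 higher in pollen (12.9% of all genes), at a Benjamini-Hochberg adjusted p under 0.05 and a log2 difference of at least 1. A gene was tested if it averaged 1 FPKM or more in either tissue, which 62 of the 95 did in leaf alone and 2 in pollen alone, so many had to differ and nothing is read from these counts. Over genes at that level in both tissues, a filter chosen after seeing the data, 13 of 31 were higher in leaf (51% of 9776 genes were) and 5 in pollen (16.8%), with a median difference of 1.37 for the 31 genes and 1.12 for all. With libraries brought to a common median, 28 of the 95 were higher in leaf (20.1% of all genes) and 14 in pollen (35.3%). After quantile normalization 38 were higher in leaf (31.5% of all genes) and 10 in pollen (25%). Cp4.1LG06g03060, tested through its leaf level as was the gene after it, averaged 63.4 ± 7.97 FPKM in leaf and 0.0917 ± 0.117 FPKM in pollen (SD, n = 4 libraries each), a log2 difference of 5.88 (SE 0.18, limma adjusted p = 7.38e-06). Cp4.1LG01g13060 averaged 38.3 ± 17.1 FPKM in leaf and 0.19 ± 0.232 FPKM in pollen, a difference of 4.95 (SE 0.22, limma adjusted p = 1.83e-05). On the pollen side, Cp4.1LG02g16690 was tested through its pollen level. It averaged 0.521 ± 0.306 FPKM in leaf and 135 ± 6.73 FPKM in pollen, a difference of -6.50 (SE 0.19, limma adjusted p = 6.56e-06). Cp4.1LG19g11250 averaged 2.59 ± 1.02 FPKM in leaf and 143 ± 8.62 FPKM in pollen, a difference of -5.36 (SE 0.22, limma adjusted p = 1.55e-05). Each of the 4 genes had the stated direction in 4 of 4 treatments. They were chosen by adjusted p from these same libraries, so this is no separate check. The pollen-rich Cp4.1LG02g16690 and Cp4.1LG19g11250 had only 6.73 and 12.6 FPKM in control root, and their pollen values under bulk CuO, 144 and 140.2 FPKM, were near the control pollen values of 136 and 154 FPKM. Cp4.1LG07g06910 was alike, with 64.9 FPKM under bulk CuO, 79.05 FPKM under NPs, 70.7 FPKM under CuSO4 and 78.2 FPKM in control pollen.

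A treatment effect common to leaf and pollen was tested with limma over the same 8 libraries, with tissue as a block, for genes that averaged 1 FPKM or more in both. Of 31 genes tested, 0 passed an adjusted p under 0.05 for any material, and 0% of all 9776 genes did. At an unadjusted p under 0.05 there were 2 genes for bulk CuO (5.37% of all genes), 1 for NPs (0.184%) and 3 for CuSO4 (4.27%). The lowest limma adjusted p among the 31 genes was 0.729 for bulk CuO, 1 for NPs and 0.833 for CuSO4. Median differences of the 31 genes were -0.30 for bulk CuO, -0.05 for NPs and -0.59 for CuSO4, where all genes had 0.12, 0.06 and 0.07. The error of this fit is the difference of effects between leaf and pollen, so a difference found in leaf alone counts as error there.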

How the data were processed

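Strand-specific mRNA libraries were read as single ends of 75 bp, per the series text. Reads were aligned to a cucurbit reference transcriptome with STAR at its default settings, per the same text. Cutadapt and StringTie stand beside STAR in the submitters' processing notes. No tool version or build was given in the sources used here. FPKM values per gene, with no counts, are what the authors deposited, so no count model was used.

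Differences were taken as log2(FPKM + 1). A gene entered a tissue's comparisons if it averaged 1 FPKM or more there, which left 20985 genes for root, 20833 for leaf and 11185 for pollen. Groups have 1 library, so differences past 2.3 were counted and set beside the share of all genes tested. Relative depth came from the most frequent ratio of values between 0.05 and 1.5 FPKM. Leaf was compared with pollen, and each material with control over both tissues, with limma 3.58.1 (R 4.3.3), empirical Bayes with a trend, two-sided, Benjamini-Hochberg over all genes tested. Libraries of a tissue differ in treatment, so its SD holds treatment effects. Python 3.11.15 did the rest.

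The members and lists were chosen with earlier results of these data known. Named genes are the 2 per direction with the largest difference among members that reach 5 FPKM in either library compared, the 2 with the lowest adjusted p between leaf and pollen, and the 2 highest in control root; Cp4.1LG05g02820 and the pollen values of Cp4.1LG07g06910 were added after seeing their values. The rule that chose the members and the limma fits were first tested on simulated data. The counts past the threshold in leaf and pollen, the classes, the split of leaf libraries, the relative depth and the search for near copies were not. Alternatives were the value added to FPKM, fold, threshold, scaling, filter, genes listed at 0 and treatments left out. For the number of members, IDs with identical values were also counted once, which gave 109. Near copies that were not identical stayed in every count. The classes by root over leaf level, the split of leaf libraries, and the leaf and pollen filter on both tissues, were added after seeing the data.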

Additional observations from a re-analysis of the deposited data

Results flagged for a closer look

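For 7 named genes, the difference from the control had opposite signs in 2 tissues, with at least 1 on the log2(FPKM + 1) scale in each. Every such value compares 1 library with 1 library, and the difference between tissues was not tested. For bulk CuO the negative root value was fixed by how the genes were chosen, since every one of the 110 genes is at -1.59 or below there, so any of them that is higher in another tissue has opposite signs by construction. For bulk CuO, Cp4.1LG16g00750 had -2.90 in root and 3.08 in leaf, with a control leaf value listed at 0. Cp4.1LG04g14890 had -1.79 in root and 2.76 in leaf, and Cp4.1LG00g06060 had -1.80 in root and 1.098 in leaf. In pollen, Cp4.1LG19g01980 had 4.598 for bulk CuO, against a control listed at 0, where root had -1.71. Where the control is listed at 0, the size depends on the value added to FPKM. Cp4.1LG07g01530 had 3.01 for bulk CuO in pollen, where root had -2.17 and leaf -1.59. For CuSO4 the same gene had 2.83 in pollen, -4.51 in leaf and 1.04 in root. Also for CuSO4, Cp4.1LG07g06910 had 1.24 in root and -1.04 in leaf, and Cp4.1LG08g09610 had 1.08 in root and -5.85 in leaf. The leaf value of Cp4.1LG07g06910 rests on low levels, 0.228 FPKM under CuSO4 and 1.53 FPKM in the control. For CuSO4 the choice of genes kept root at least 3-fold above bulk CuO in FPKM + 1, which limited falls in root.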

How the results depend on the processing

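The number of members depended most on how they were chosen. It was 110 as described, 305 with 0.1 added to FPKM (108 of the 110 among them), 47 with 5 added, 497 at a fold of 2 and 41 at a fold of 4. With a median shift it was 102 (99 shared) and with quantile normalization 106 (101 shared). For the counts of members past the threshold, the share of all genes under the same setting stands in brackets. In leaf, with 5 added, 1 member was higher (1.3%) and 9 lower (1.63%) under bulk CuO, 0 higher (0.0096%) under CuO NPs, and 0 higher (0.917%) and 16 lower (1.55%) under CuSO4. At a threshold of 1, 12 were higher (21.3%) and 42 lower (13.6%) under bulk CuO, 17 lower (1.64%) under NPs, and 6 higher (17.5%) and 53 lower (13.4%) under CuSO4. Without genes listed at 0, NPs had 0 higher (0.0195%) and 1 lower (0.0584%) and CuSO4 1 higher (2.66%) in leaf. With 0.1 added, NPs had 4 lower (0.413%) in leaf. In pollen, leaving out genes listed at 0 gave 1 higher (0.967%) under bulk CuO, 0 (0.119%) under NPs and 1 (1.52%) under CuSO4. With 5 added, 0 were higher under NPs (0.0447%) and 0 under CuSO4 (0.376%). With 0.1 added, 1 was lower under bulk CuO (0.617%) and 1 under NPs (0.331%). At a threshold of 1, 3 were lower under bulk CuO (1.15%) and 1 under NPs (0.438%), and 5 were higher under CuSO4 (8.57%). Between leaf and pollen, a median shift gave 28 higher in leaf and 14 in pollen, quantile normalization 38 in leaf, and a level of 1 FPKM in both tissues, chosen after seeing the data, 13 in leaf. Leaving out the libraries of 1 treatment gave 61 to 74 members higher in leaf and 7 to 7 in pollen. Another 95 alternative values of these counts stayed within 1.5 times. The 32 differences of genes named by rank were rerun, with 0 changes of sign, and other printed differences were not rerun. No paired analysis was possible because each group holds 1 library, as far as replicate numbers go. Treatment was the block between leaf and pollen, and without it the counts were 69 and 7. Absolute depth is unknown, so no counting error can be given for low values.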
